A study of Mus musculus with 8 samples.

Results

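The genes described here encode the Kv1 family of voltage-gated potassium channels and their cytoplasmic beta subunits. They were chosen by gene symbol: 6 pore-forming genes (Kcna1 to Kcna6) and 3 beta genes (Kcnab1, Kcnab2 and Kcnab3). All 9 have values among the 14353 genes of the deposited table. The other Kv1 pore genes, Kcna7 and Kcna10, were not analysed here. Levels were compared between mRNA from a pulldown directed at ribosomes of vGluT2-expressing cells and mRNA of the whole ventral pallidum (VP) of adult mice.

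Kv1 channels assemble from 4 pore subunits, which may be of different Kv1 genes, and open at potentials close to the threshold of the action potential. In axons and at the initial segment they limit repetitive firing, and they are held there by a complex of adhesion and scaffold proteins. Beta subunits bind the cytoplasmic side of the channel. They are related to aldo-keto reductase enzymes, they aid the transport of channels to the axon surface, and some of them close the pore quickly after it has opened.

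All mice were vGluT2-Cre x RiboTag animals, homozygous for VGluT2-Cre, heterozygous for Rpl22, and untreated. Cre is driven by the Slc17a6 locus and permanently switches on an HA-tagged ribosomal protein, so cells that expressed Slc17a6 earlier in life can carry the tag too. The TRAP (translating ribosome affinity purification) fraction was collected with an antibody against HA. By the labels, INPUT was a part of the same lysate set aside before the pulldown, but one passage of the methods has the unbound fraction sequenced in its place. Tissue was pooled within each of 4 pools, so no value belongs to 1 animal: VP1.6 held 7 mice (3 male, 4 female, 9 to 12 weeks old), VP2.2 held 10 (4 male, 6 female), VP2.6 held 11 (4 male, 7 female) and VP2.11 held 10 (4 male, 6 female), the latter 3 pools at 10 to 16 weeks. Each pool gave 1 TRAP and 1 INPUT library, 8 libraries in all. In bulk RNA, fewer cells of a type and less RNA per cell cannot be told apart.

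Levels are given as CPM, taken from the log2 CPM values that the authors deposited, and TRAP minus INPUT differences are on the log2 scale. Within VP2.2 and VP2.6 these differences fell on steps of whole reads, which gave effective depths of 12.6 M reads (TRAP) and 38.3 M reads (INPUT) for VP2.2, and of 12.4 M and 24.7 M reads for VP2.6. The other pools are rounded, and their depth is unknown. The levels themselves are not independent between the libraries of a pool. For 14352 of 14353 genes, 1 level lay between the TRAP and INPUT values of all 4 pools (within 0.011 log2 units, which allows for rounding), as in values from which a weighted mean of each pool has been subtracted. No source used here describes such a step. For the members whose reads were recovered (15 of 18 pairs of values in VP2.2 and VP2.6), the deposited level differed from reads scaled to library size by -0.70 to 0.20 log2 units, in VP2.2 by -0.63 for Kcna1 and -0.01 for Kcna3. Levels, ranks and shares of different genes carry these shifts. As a result, each of the 6791 genes tested that moved the same way in all 4 pools also had TRAP and INPUT libraries that did not overlap, and a lack of overlap adds nothing to the agreement of the pools. Differences within a pool do not change when a constant is taken from both of its libraries, and a limma model that includes pools as blocks uses these differences alone. TRAP was therefore compared with INPUT by limma without the block, the fit set for this comparison, and with it, and both adjusted p-values (Benjamini-Hochberg over 14249 genes) are printed. Data were simulated with errors opposed within pools as they are here and 200 of 14249 genes changed, far fewer than are called in these data. The fit without the block called 135 of the changed and 87 unchanged genes, and the blocked fit 34 and 2. The fit without the block thus made more false calls than its threshold allows, so a call made by it alone is less secure. An adjusted p under 0.05 is called. Where 4 values are listed for a gene, they follow the order VP1.6, then VP2.2, then VP2.6, then VP2.11.

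The pore genes are related enough for reads to be shared. The coding strand around the potassium selectivity filter shows how far they differ, so this stretch of 60 bases is printed for each gene. The signature that forms the filter lies at bases 22 to 39, and capitals mark bases that differ from Kcna1 (GRCm38, sequence from GENCODE transcripts).
Kcna1 (chr6:126642204-126642263, minus strand): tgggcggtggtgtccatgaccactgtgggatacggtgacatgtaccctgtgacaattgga
Kcna2 (chr3:107105203-107105262, plus strand): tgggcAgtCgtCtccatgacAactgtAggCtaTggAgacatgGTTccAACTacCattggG
Kcna3 (chr3:107037590-107037649, plus strand): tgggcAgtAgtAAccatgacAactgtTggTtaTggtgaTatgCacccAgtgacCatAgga
Kcna4 (chr2:107296474-107296533, plus strand): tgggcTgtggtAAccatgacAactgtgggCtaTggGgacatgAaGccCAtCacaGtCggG
Kcna5 (chr6:126533721-126533780, minus strand): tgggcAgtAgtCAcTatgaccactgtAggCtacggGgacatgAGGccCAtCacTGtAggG
Kcna6 (chr6:126738623-126738682, minus strand): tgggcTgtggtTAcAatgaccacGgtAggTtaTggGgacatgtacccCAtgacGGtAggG
The 5 other genes differed from Kcna1 at 13 (Kcna3) to 18 (Kcna5) of the 60 bases, and the closest pair was Kcna4 and Kcna5, with an identity of 83.3%. A read of 75 bases, the length used by the study, that spans the stretch crosses all of these differences.

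Only Kcna5 and Kcna6 shared a stretch as long as a read with another pore gene. In 2 coding runs of 91 and 86 bases they are identical, and 29 of the 2788 stretches of 75 bases in Kcna5 (1.04%) occur in Kcna6. The longer run is shown because it includes part of the S4 voltage sensor and because reads inside it could not be assigned to either gene (Kcna5, chr6:126533950-126534040, and Kcna6, chr6:126738852-126738942, both minus strand).
Kcna5 and Kcna6: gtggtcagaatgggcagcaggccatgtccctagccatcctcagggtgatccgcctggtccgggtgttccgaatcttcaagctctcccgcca
A separate limit holds for Kcna6, of whose exon bases 39.6% overlap the antisense gene Gm26673. Whether strand was used in counting is not given in the sources used here. The methods count unambiguous reads only, so without strand, reads in that stretch could have been left out and Kcna6 undercounted. The level per length, rank and share of Kcna6 carry this limit. The overlaps of Kcnab1, Kcnab2 and Kcnab3 with other genes covered 2.34%, 2.24% and 5.13% of their exon bases.

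TRAP differed from INPUT for 4 of the 9 genes without the pool block, 2 higher and 2 lower, beside 47.9% of all genes tested (23.2% higher and 24.8% lower). With the block 2 genes were called, Kcna5 (lower) and Kcnab3 (higher), beside 32.2% of all genes (15.4% higher and 16.8% lower). Of the 9 genes, 4 had the same direction in all 4 pools, and their fractions did not overlap, as for 47.7% of all genes. The share called among the 9 was thus close to the background, and the members are described one by one. Kcna5 was lower in TRAP and Kcnab3 higher in both fits. Kcnab1 was lower and Kcnab2 higher in the fit without the block. None of the other 5 pore genes was called in either fit. These directions are relative to all genes: when each library was centred on 5 pan-neuronal genes, which moved TRAP minus INPUT of every gene down by 1.05, 0 of the 9 genes were higher and 6 were lower by limma without the block, beside 289 higher and 10354 lower of all 14249 genes. Kcnab2 was lower in TRAP (-0.50) and Kcnab3 stood at -0.13, while Kcna5 and Kcnab1 kept their direction, and Kcna1, Kcna4 and Kcna6 were called lower.

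**Figure D1:**
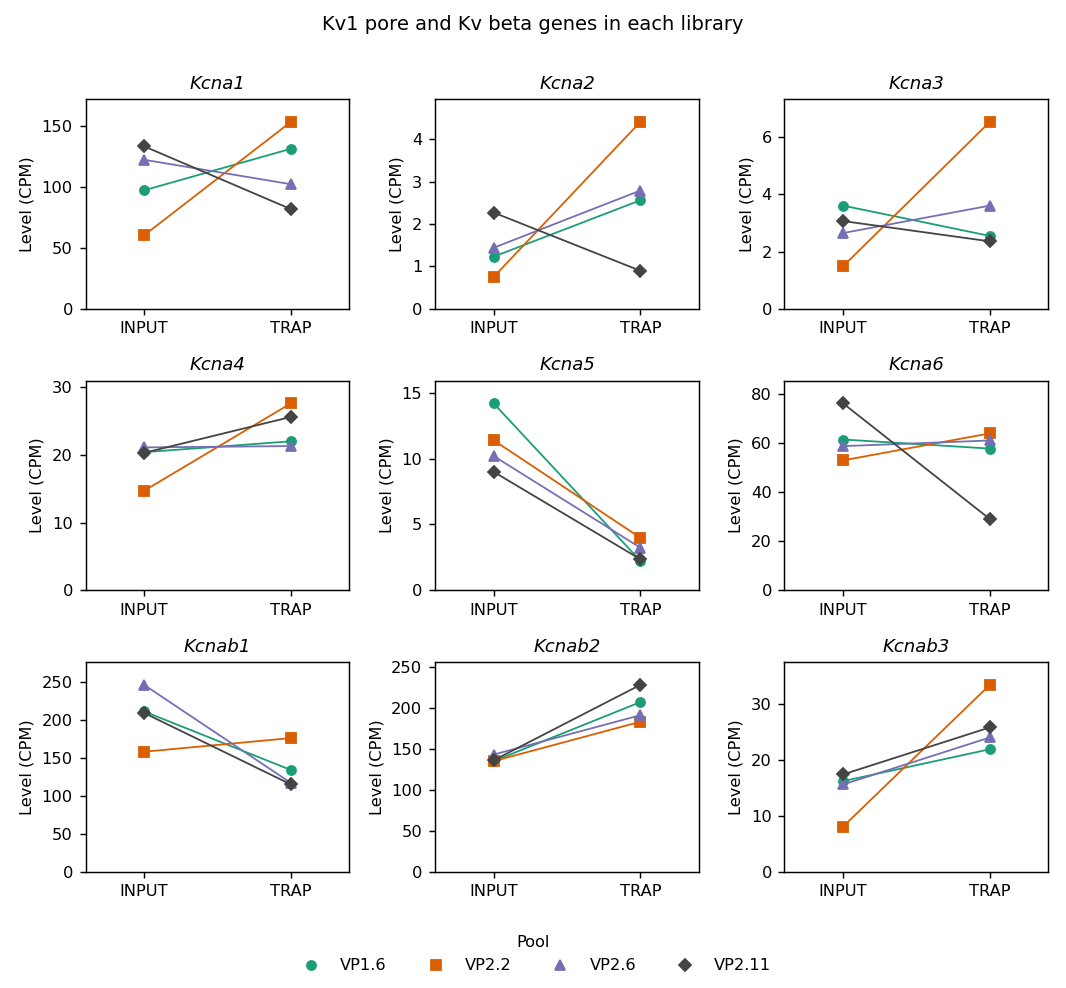
Level of each Kv1 pore and Kv beta gene in every library, in CPM on a linear axis from 0, with a line joining the INPUT and TRAP library of a pool. The 4 lines of Kcna5 fall from between 9.00 and 14.2 CPM to between 2.24 and 3.99 CPM and those of Kcnab2 and Kcnab3 rise in every pool, while the lines of Kcna1, Kcna3 and Kcna6 cross.

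Among the pore genes, Kcna1 had the highest level. It encodes Kv1.1, a low-threshold channel of axons, and lies on chromosome 6 of GRCm38 from 126640397 to 126646384 (ENSMUSG00000047976). TRAP libraries averaged 117 ± 31.6 CPM and INPUT libraries 103 ± 32.2 CPM (SD, n = 4 for each). In TRAP it was 131 CPM in VP1.6, 153 in VP2.2, 102 in VP2.6 and 81.6 in VP2.11, and in INPUT 97.0, 60.2, 122 and 133 CPM in the same order. The groups overlapped, with TRAP above INPUT in VP1.6 and VP2.2 and below it in the other pools. The difference was 0.21 (SE 0.27, 95% interval -0.38 to 0.79), with limma's adjusted p 0.55 without and 0.61 with the block. It had the other sign, -0.18, without VP2.2, the pool in which the deposited INPUT level was lowest. In VP2.2 the difference came from 2990 TRAP and 3554 INPUT reads, with a counting error (SE) of 0.04, which leaves out variation between pools. The pools disagreed on the direction for the most abundant pore gene.

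Kcna6 encodes Kv1.6, a delayed rectifier that assembles with the other Kv1 subunits (ENSMUSG00000038077, chromosome 6 from 126708329 to 126740674). Its levels were 57.7, 63.9, 61.0 and 29.0 CPM in TRAP, and 61.4, 52.9, 58.7 and 76.1 CPM in INPUT. In 3 pools the fractions lay close together, and only in VP2.11 was TRAP far below INPUT. The mean difference of -0.29 (SE 0.24) was not called, at limma's adjusted p 0.35 without and 0.44 with the block. It stood at 0.08 without VP2.11.

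Kcna4 encodes Kv1.4, the Kv1 pore subunit that inactivates by itself and gives an A-type current (ENSMUSG00000042604, chromosome 2 from 107290639 to 107298502). It had 22.0, 27.6, 21.3 and 25.6 CPM in TRAP and 20.4, 14.7, 21.1 and 20.3 CPM in INPUT. TRAP was the higher fraction in all 4 pools, but the differences ran from 0.02 in VP2.6 to 0.91 in VP2.2. With a mean of 0.34 (SE 0.17 without and 0.25 with the block), it was called in neither fit, at an adjusted p from limma of 0.11 and 0.32, and it was 0.15 without VP2.2. In VP2.6 it was read 269 times in TRAP and 529 times in INPUT.

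Kcna5 was the pore gene with the largest difference. It encodes Kv1.5, best known from the atria of the heart and from vascular smooth muscle, and lies on chromosome 6 from 126532551 to 126535412 (ENSMUSG00000045534). In TRAP its level was 2.24 CPM in VP1.6, 3.99 in VP2.2, 3.24 in VP2.6 and 2.36 in VP2.11. In INPUT it was 14.2, 11.4, 10.2 and 9.00 CPM. TRAP was lower in all 4 pools, by 2.67, 1.52, 1.66 and 1.93 log2 units in the same order.

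The mean difference of Kcna5, -1.94, is a level 3.85-fold lower in TRAP. The SE was 0.25 (limma's adjusted p 2.6e-04) when pools were ignored and 0.35 (0.0010) when they entered as a block. Among the alternatives, pan-neuronal centring included, it ran from -3.00 to -1.63, with no adjusted p above 0.0057. The reads behind it were 62 in TRAP and 540 in INPUT of VP2.2, and 41 and 260 in VP2.6, so its counting errors (SE 0.19 and 0.24) were well under the difference.

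Several cell type lists were also lower in TRAP beside Kcna5. The difference had a median of -1.97 over 5 microglial genes (5 lower without the block, 3 with it), -1.12 over 5 astrocytic genes (4 lower in both fits), -1.60 over 5 oligodendrocytic genes (4 lower in both fits, while the fifth, Mag, was higher without the block) and -1.34 over 5 genes of striatal projection neurons (4 lower in both fits). Summed per library, the microglial list, whose most abundant gene in TRAP was Csf1r, took 23.7 to 31.8 CPM in TRAP and 78.8 to 126 CPM in INPUT. The astrocytic list (most abundant Slc1a3) took 150 to 253 and 343 to 502 CPM, the oligodendrocytic list 900 to 1631 and 3506 to 3807 CPM, and the striatal list (Ppp1r1b) 229 to 305 and 444 to 611 CPM. Single genes of other lists were higher in TRAP. Of the 2 endothelial genes with values, Flt1, a receptor for vascular growth factor, was higher in TRAP (2.37, adjusted p from limma 0.0080 without and 0.0047 with the block) and Pecam1 was not called (0.59), and their sum ran from 5.60 to 28.9 CPM in TRAP and from 1.46 to 5.82 CPM in INPUT. Of 2 genes of oligodendrocyte precursors, Cspg4 was higher (1.98, called in both fits) and Pdgfra was not called (-0.28). The cholinergic list of 3 genes was split: Slc18a3 was lower (-1.75, both fits), Chat higher without the block alone (0.70) and Slc5a7 not called (0.81). Pvalb, the parvalbumin marker, was lower in TRAP (-1.38, adjusted p from limma 8.3e-04 without and 8.9e-04 with the block). None of these markers was at 0 in TRAP, where the lowest value, in a microglial gene, was 0.723 CPM. The part of these cells in the difference of Kcna5 was not tested.

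Kcna3 and Kcna2, like Kcna5 in TRAP, rested on few reads in VP2.2 and VP2.6. Kcna3 encodes Kv1.3, also known from T lymphocytes and microglia (ENSMUSG00000047959, chromosome 3 from 107036169 to 107038070). Its level ran from 2.36 to 6.54 CPM in TRAP and from 1.49 to 3.61 CPM in INPUT, and TRAP was higher in VP2.2 and VP2.6 and lower in VP1.6 and VP2.11. Its mean difference of 0.43 (SE 0.39, limma's adjusted p 0.39 without and 0.55 with the block) changed to -0.14 without VP2.2.

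Kcna2 encodes Kv1.2, in many axons the usual partner of Kv1.1 (ENSMUSG00000040724, chromosome 3 from 107101146 to 107115005). It had 2.56, 4.41, 2.79 and 0.897 CPM in TRAP and 1.23, 0.750, 1.44 and 2.27 CPM in INPUT, so TRAP was higher in all pools but VP2.11. Only 90 and 46 reads of VP2.2, and 33 and 34 of VP2.6, stood behind these values (TRAP and INPUT). The difference of 0.81 (SE 0.52) was not called, with limma's adjusted p 0.22 and 0.36. It depended on single pools, at 1.52 (adjusted p from limma 0.012, no block) without VP2.11 and 0.22 (0.75) without VP2.2. With array weights it was 0.87 (0.038), and 0.82 (0.24) when the block was added. With a trend on exon length removed it was 0.37 (0.61).

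**Figure D2:**
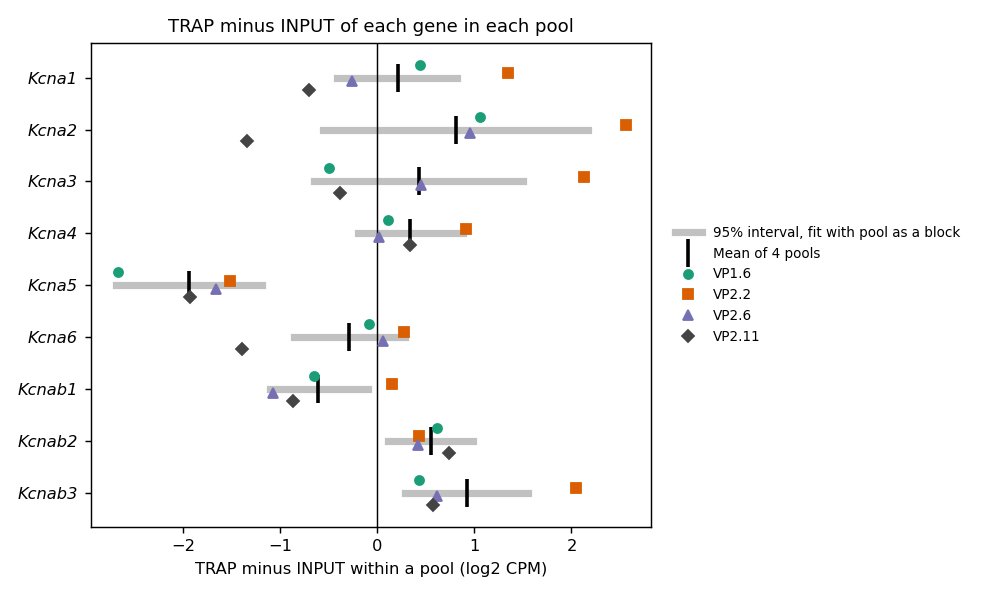
TRAP minus INPUT of each gene within each pool (log2 CPM, horizontal axis), with the mean of the 4 pools as a vertical tick and the 95% interval from limma with pools as blocks as a grey bar. Kcna5 lies below 0 and Kcnab2 and Kcnab3 above it in every pool, and VP2.2 is the rightmost pool for 8 of the 9 genes.

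VP2.2 stood apart across these genes. Its difference was the highest of the 4 pools for all 6 pore genes and for 8 of the 9 genes, whereas this pool was the highest for 32.3% of all genes tested. The median difference of the 9 genes was 0.91 in VP2.2, 0.11 in VP1.6, 0.06 in VP2.6 and -0.70 in VP2.11, while the median over all genes was between -0.04 and -0.01 in every pool. The same pool was the one in which the summed GABAergic markers (Slc32a1, Gad1 and Gad2, of which Gad1 was the most abundant) were higher in TRAP, at 1573 CPM against 584 CPM in INPUT. They took 918 and 1394 CPM in VP1.6, 1071 and 1214 CPM in VP2.6, and 1045 and 1214 CPM in VP2.11. Slc32a1, the vesicular GABA transporter, which adds little to this sum, went the other way and was lower in every pool (-1.26, with limma's adjusted p 0.0027 without and 0.0055 with the block). Gad1 (613 CPM in TRAP, 0.30, limma's adjusted p 0.39 and 0.47) and Gad2 (528 CPM, -0.05, 0.90 and 0.92) were called in neither fit. Levels, ranks and shares in TRAP are those of the pulldown and cannot be assigned to vGluT2 cells alone. Deposited sums of other lists also set VP2.2 apart. The other Kv genes summed to 657 CPM in TRAP and 303 CPM in INPUT of VP2.2, against 538 to 561 and 428 to 468 CPM in the other pools. The TRAP library of VP2.2 had the highest sums of astrocytic (253 CPM) and oligodendrocytic (1631 CPM) markers of the 4 TRAP libraries. Its INPUT library had the lowest sum of 5 pan-neuronal genes (5480 CPM, against 7572 to 10591 CPM). Most of that sum was Snap25, at a mean of 5174 of 7874 CPM in INPUT. Deposited levels carry shifts by gene and pool and are opposed within a pool. Kcna1 in INPUT of VP2.2, for example, was 60.2 CPM as deposited and 92.9 CPM from reads. Sums of single libraries across pools are thus no separate observations from the differences. Slc17a6, the target of the pulldown, was higher in TRAP in all 4 pools (130 to 162 against 14.4 to 39.4 CPM), VP2.2 included. The part of these cell types in the pattern of VP2.2 was not tested. Without VP2.2 the differences of the 4 called genes were -2.09 (Kcna5), -0.86 (Kcnab1), 0.59 (Kcnab2) and 0.54 (Kcnab3), all at an adjusted p from limma of 0.015 or lower without the block.

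The beta genes showed opposite directions. Kcnab1 encodes Kvβ1, whose N-terminal part can plug the pore and makes slowly inactivating Kv1 channels inactivate fast (ENSMUSG00000027827, chromosome 3 from 65109384 to 65378223). Its levels were 134, 176, 117 and 115 CPM in TRAP and 211, 158, 246 and 209 CPM in INPUT. TRAP was lower in 3 pools and slightly higher in VP2.2. The mean difference was -0.61, or 1.52-fold lower, with an SE of 0.18 without the block (limma's adjusted p 0.017) and 0.24 with it (0.062). The call without the block was also lost when VP1.6, VP2.6 or VP2.11 was left out (adjusted p 0.087, 0.13 and 0.088). Beside the block, it passed with array weights (-0.78, adjusted p from limma 0.0028) and with a trend on exon length removed (-0.91, 0.013).

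Kcnab2 encodes Kvβ2, the beta subunit that most supports axonal delivery of Kv1 channels and does not inactivate them (ENSMUSG00000028931, chromosome 4 from 152390742 to 152477871). Its deposited INPUT levels were nearly constant, at 135, 135, 143 and 136 CPM, and its TRAP levels were 207, 183, 191 and 228 CPM. From reads scaled to library size, INPUT was 147 CPM in VP2.2 and 173 CPM in VP2.6, so the constancy holds for the deposited values only. TRAP was higher by 0.62, 0.43, 0.42 and 0.74 log2 units, the narrowest spread among the 9 genes. The mean of 0.55 (1.47-fold) had an SE of 0.12 without the block (limma's adjusted p 0.0032) and of 0.21 under the block (0.053). The call was lost with the block. With array weights beside the block the adjusted p from limma was 0.020, and with the length trend removed beside it 0.13. Pan-neuronal centring turned the difference to -0.50 (adjusted p from limma 0.0099, no block).

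Kcnab3 encodes Kvβ3, a subunit found mainly in the brain (ENSMUSG00000018470, chromosome 11 from 69326258 to 69333042). It had 21.9, 33.4, 24.0 and 25.8 CPM in TRAP and 16.2, 8.08, 15.6 and 17.4 CPM in INPUT. TRAP was higher in all 4 pools, with differences of 0.43, 2.05, 0.62 and 0.57, so VP2.2 was far above the rest. The mean of 0.92 (1.89-fold) was called in both fits (SE 0.25 and 0.30, limma's adjusted p 0.012 and 0.028). It fell to 0.54 without VP2.2, with an adjusted p of 0.015 without the block.

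A ratio of beta genes within a library is free of any scaling between libraries. Per kilobase (kb) of exon, Kcnab2 exceeded Kcnab1 in TRAP by 1.25, 0.68, 1.33 and 1.61 log2 units. In INPUT the same quantity was -0.02, 0.39, -0.16 and 0.00. The level of one gene against the other depends on the length used, while the change of the ratio between fractions does not, and the Kcnab2 to Kcnab1 ratio was higher in TRAP in all 4 pools, by 1.16 ± 0.60 (SD, n = 4 pools). The Kcnab3 to Kcnab1 ratio was higher in all 4 pools as well, by 1.53 ± 0.35 (SD, n = 4). These ratios were chosen after their values were seen and are given without a test.

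Levels of different genes were compared per kb of exon, since longer transcripts give more reads. In TRAP the order of the pore genes was Kcna1 (24.5 ± 6.61 CPM per kb), Kcna6 (8.90 ± 2.71), Kcna4 (4.99 ± 0.615), Kcna3 (1.98 ± 1.01), Kcna5 (1.03 ± 0.286) and Kcna2 (0.224 ± 0.121; SD, n = 4 for each). Neighbours in this order differed in the same direction in all 4 libraries, except that Kcna6 was above Kcna4 in 3 of 4. The Kcna1 to Kcna6 step was 1.48 ± 0.31 log2 units (SD, n = 4), and the exact sign-flip test over 4 libraries gave p = 0.12, the smallest it can give. In INPUT, Kcna5 and Kcna4 could not be separated per exon length (0.02 ± 0.39 log2 units, SD, n = 4), and Kcna5 stood above Kcna3 in all 4 libraries, the reverse of TRAP. Among the beta genes the order in TRAP was Kcnab2 (36.3 ± 3.55 CPM per kb), Kcnab1 (15.8 ± 3.30) and Kcnab3 (9.17 ± 1.75), and in INPUT Kcnab2 and Kcnab1 could not be separated per exon length (0.05 ± 0.24 log2 units, SD, n = 4). Other lengths changed some of these steps. With the longest transcript, the coding length or no length, Kcnab1 was above Kcnab2 in all 4 INPUT libraries. With the coding length, Kcna4 was above Kcna5 in all 4 INPUT libraries, and Kcna2 and Kcna5 held 1.29% and 1.28% of the pore level in TRAP. Kcna2 was the lowest of the pore genes in INPUT with each of the 4 lengths, on few reads.

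As a share of the summed Kv1 pore level per kb, Kcna1 made up 58.6 ± 3.38% in TRAP and 51.0 ± 6.59% in INPUT, and Kcna6 21.2 ± 3.98% and 25.7 ± 3.48% (SD, n = 4 for each). Kcna4 held 12.6 ± 3.68% in TRAP and 9.65 ± 0.844% in INPUT, a gap of 2.91 percentage points that was 0.679 without VP2.11. The share of Kcna5 ran from 1.78 to 2.89% in TRAP, and was 11.9, 13.6, 7.97 and 6.33% in INPUT, so TRAP was lower in all 4 pools. Among the beta genes, Kcnab1 held 25.9, 31.6, 24.3 and 21.1% in TRAP against 45.1, 40.5, 48.0 and 44.4% in INPUT, again lower in all 4. Kcnab3 held 14.9 ± 2.23% in TRAP and 9.20 ± 2.15% in INPUT, with TRAP higher in 4 pools, and Kcnab2 was higher in TRAP in 3 pools (59.4 ± 6.16% against 46.3 ± 4.71%; SD, n = 4). For Kcna5, Kcnab1 and Kcnab3 the exact two-sided permutation test over 8 libraries gave p = 0.029, the smallest that 4 against 4 can give, and 0.086 after adjustment over 9 shares. This test treats the 8 libraries as independent, although the 2 libraries of a pool are opposed. The exact sign-flip test within pools gave p = 0.12 for each, the smallest it can give with 4 pools, and no share passed the threshold after adjustment. The sizes of the shares depend on the length: per coding length, Kcnab3 held 6.95% in TRAP and 3.85% in INPUT, Kcna5 1.28% and 5.17%, and Kcna3 1.78% in TRAP against 4.63% per exon length.

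**Figure D3:**
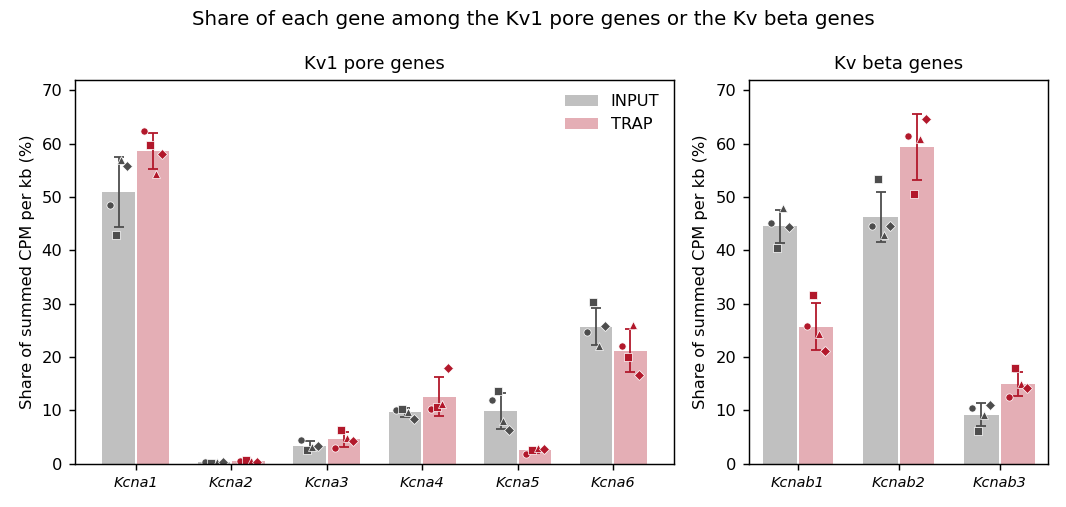
Share of each gene in the summed CPM per kb of the 6 Kv1 pore genes (left) or of the 3 Kv beta genes (right), in percent. Bars are means of 4 libraries, error bars 1 SD and symbols single libraries (circle VP1.6, square VP2.2, triangle VP2.6, diamond VP2.11). Kcnab1 takes 25.7% in TRAP and 44.5% in INPUT, and Kcna5 2.52% and 9.94%.

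Neither family as a whole differed between the fractions beyond the threshold. The summed pore level was 41.6 ± 10.1 CPM per kb in TRAP and 41.4 ± 8.67 in INPUT, and TRAP was the higher in 2 of 4 pools (exact permutation p = 1.0 and exact sign-flip p = 1.0, two-sided; SD, n = 4). For the beta genes the sums were 61.2 ± 3.73 and 53.6 ± 5.89 CPM per kb (exact permutation p = 0.057, exact sign-flip p = 0.25, SD, n = 4), higher in TRAP in 3 pools. The ratio of beta to pore level was 1.54 ± 0.416 in TRAP and 1.32 ± 0.182 in INPUT (SD, n = 4), which did not differ beyond the spread of the libraries (exact permutation p = 0.43, exact sign-flip p = 0.62).

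Of 25 voltage-gated potassium channel pore genes ranked by TRAP level per kb, Kcna1 came first, and in single TRAP libraries it was first in 3 and second in VP2.11. Kcnd2, an A-type channel gene of dendrites, was next at 20.2 CPM per kb, and was not called (0.21, limma's adjusted p 0.39 without and 0.54 with the block). Kcna6 took rank 4, Kcna4 rank 8, Kcna3 rank 16, Kcna5 rank 20 and Kcna2 rank 24. Kcna5 held rank 6 in INPUT.

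The 19 other Kv genes in the table were counted beside the Kv1 family. In TRAP, 8 were higher and 1 was lower when pools were ignored, and 5 and 1 when they entered as a block, beside the 23.2% and 15.4% of all genes that were higher and the 24.8% and 16.8% that were lower. Without VP2.2, and with pools ignored, 5 were higher and 1 was lower, beside 3127 higher and 3076 lower among all genes. With pan-neuronal centring 0 were higher and 8 were lower by limma, beside 10354 of 14249 genes lower. With a trend on exon length removed 3 of the 19 were higher, beside 3068 of 14249 genes, and with the block as well 1, beside 1890 of 14249, so the share among these genes was then not above that of all genes. Of the 6 Kv1 pore genes 0 were higher and 1 was lower in both fits by limma, and at an unadjusted p under 0.05 the counts were the same. The Kv3 gene Kcnc1, a fast delayed rectifier, was not called (0.37, adjusted p from limma 0.076 without and 0.24 with the block). The difference between the families was not tested.

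**Figure D4:**
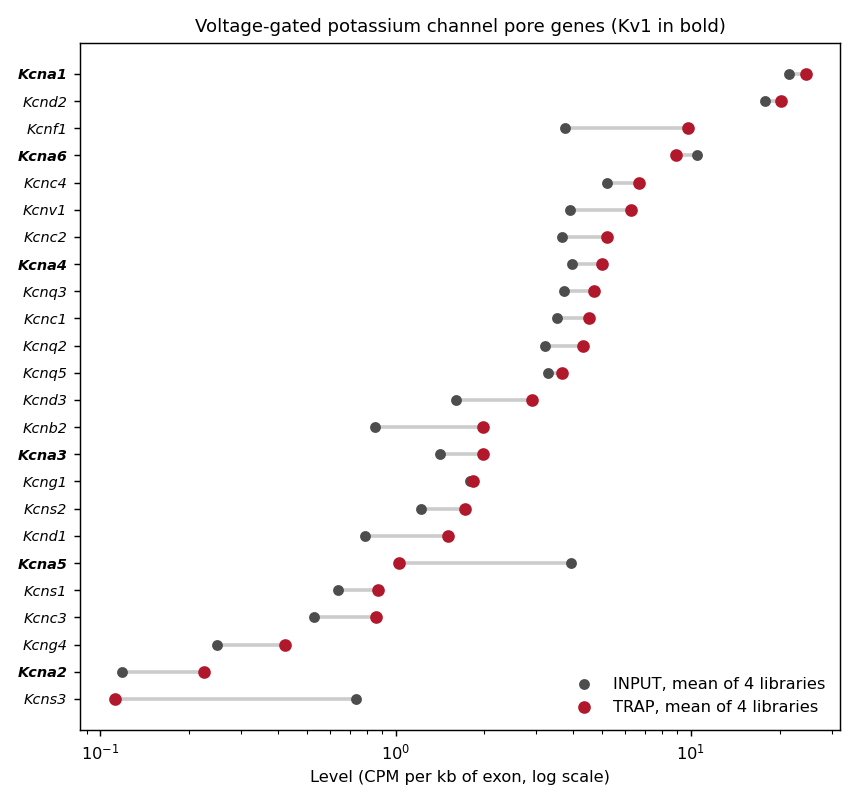
Mean level of voltage-gated potassium channel pore genes in TRAP (red) and INPUT (grey), in CPM per kb of exon on a log axis, ordered by the TRAP level, with Kv1 genes in bold. Kcna1 is at the top at 24.5 CPM per kb in TRAP, and Kcna5 and Kcns3 are the genes whose INPUT point lies far to the right of their TRAP point.

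Proteins that place Kv1 channels or bind them were examined through 16 genes with values. In TRAP, 8 of them were higher and 1 was lower when pools were ignored, and 6 and 1 when they entered as a block, beside 23.2% and 15.4% of all genes that were higher and 24.8% and 16.8% that were lower. Their median difference was 0.46, and that of all genes tested -0.05. With a trend on exon length removed, 5 of the 16 were higher and 2 lower without the block, beside 3068 and 2830 of 14249 genes. With the block as well, 4 were higher and 1 was lower, beside 1890 and 1816 of 14249 genes. These directions were also relative to all genes, and with pan-neuronal centring 0 were higher and 10 were lower by limma, beside the 10354 of 14249 genes that were lower.

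The list of axonal adhesion genes had 3 of 4 higher in both fits, beside 23.2% of all genes without and 15.4% with the block. Cntn2 is the contactin of the complex that anchors Kv1 channels beside the node of Ranvier. It had 76.6 ± 4.87 CPM in TRAP and 30.3 ± 7.25 CPM in INPUT (SD, n = 4), and was higher in 4 of 4 pools. The difference was 1.37 (adjusted p from limma 2.9e-04 without and 5.6e-04 with the block). Epb41l3 (0.61) and Cntnap1 (0.92) were called in both fits too, the latter a gene of the paranodal junction. Epb41l3 has 11.9 kb of exon, and for Kcna2, also at 11.9 kb, the trend on exon length was 0.44. Which single partners kept their call with this trend removed is not given here. Cntnap2, which binds Cntn2 and gathers Kv1 channels, was not called (181 ± 22.4 against 153 ± 18.9 CPM, SD, n = 4, difference 0.24, limma's adjusted p 0.17 and 0.41).

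Among the secreted LGI proteins and their ADAM receptors, 4 of 6 genes passed as higher without the block, of which 2 also passed under it. These counts stand beside 23.2% and 15.4% of all genes. Adam22, the LGI1 receptor that co-purifies with Kv1 channels, reached 130 ± 14.5 CPM in TRAP against 62.8 ± 18.8 CPM in INPUT (SD, n = 4), a difference of 1.10 (adjusted p from limma 0.0029 without and 0.0045 with the block). Adam11, a relative needed for Kv1 channels at cerebellar basket cell terminals, differed by 1.16 (adjusted p from limma 8.1e-04 and 0.0046). Lgi1, a ligand of Adam22 that slows Kv1 inactivation by Kvβ1, differed by 0.55 and was called without the block alone (adjusted p from limma 0.015 and 0.083).

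The scaffold genes went the other way or did not pass. Dlg4, which encodes PSD-95, a synaptic scaffold that binds the tail of Kv1 subunits, had 21.0 ± 2.66 CPM in TRAP and 43.6 ± 5.63 CPM in INPUT (SD, n = 4). It was lower in TRAP in 4 of 4 pools, with a difference of -1.06 (adjusted p from limma 4.5e-04 without and 0.0035 with the block). Its relatives Dlg1 and Dlg2 were not called (-0.38 and -0.09). Among the other modulators Cttn, a cortical actin-binding protein, was higher in both fits (0.79, adjusted p from limma 0.0049 and 0.020), and Slc7a5 was not called.

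**Figure D5:**
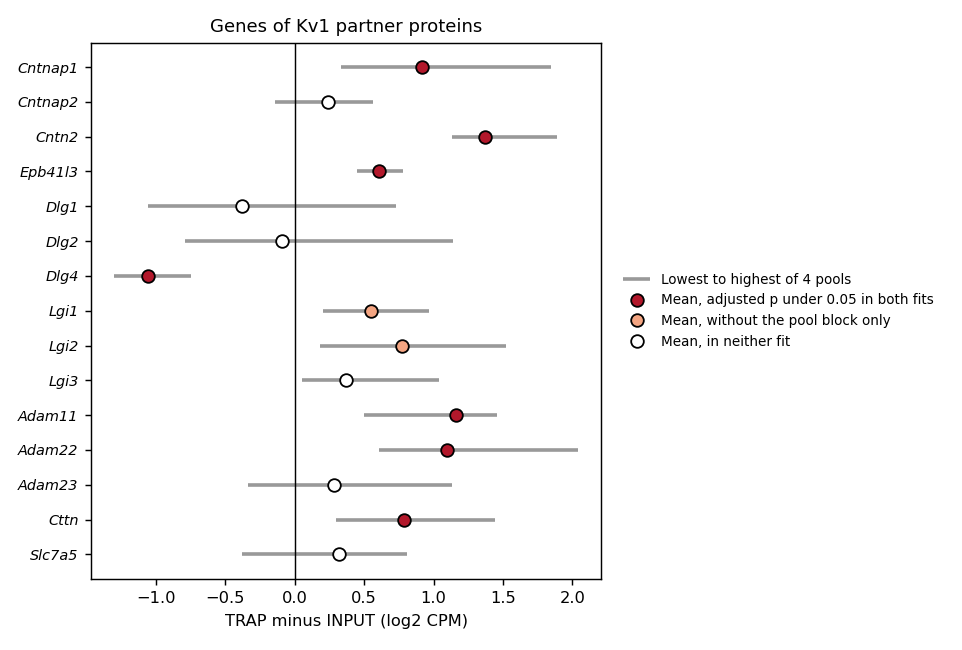
TRAP minus INPUT (log2 CPM) of genes whose proteins place or modulate Kv1 channels, with a line from the lowest to the highest of the 4 pools and a circle at the mean, filled dark where the adjusted p from limma was under 0.05 in both fits, light where only without the pool block, and open where in neither. Cntn2 is farthest to the right at 1.37 and Dlg4 farthest to the left at -1.06.

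The genes whose values followed the most abundant pore and beta gene most closely were found by the distance over the 8 libraries after each gene was centred on its own mean. For Kcna1 these were Ankrd50, Ccnt2 and Plcg1, at distances of 0.25, 0.31 and 0.31 log2 units, where the median over 14248 genes was 1.72. For Kcnab2 they were Mat2b, Nptn and Slc25a4, at 0.08, 0.13 and 0.13, where the median was 1.42. Both sets are descriptions of 8 libraries that share 4 pools.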

How the data were processed

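The submitters' processing notes name STAR 2.5.1a and limma. Per the methods, the authors aligned reads of 75 bases to an Ensembl mouse assembly (GRCm38), kept unique reads per gene, computed TMM factors and used voom with quality weights. The authors deposited log2 CPM values, used here, and, not used here, their own comparison: log2 fold changes with limits and mean level, p-values, and as score columns the t and B statistics, a signed linear fold change and a transcript number the authors took from the annotation. Of 14398 entries 45 repeated a gene. The 14249 genes that exceeded 1 CPM in 3 or more of the 8 libraries were fitted with limma 3.58.1 in R 4.3.3 (trend), by fraction alone and with the pool as a block. Both fits were tested on simulated data, where the fit by fraction alone made more false calls than its threshold allows and the blocked fit found fewer of the changed genes. Pools pair the libraries because both come from 1 homogenate, and deviations of same-pool libraries correlated at -0.745 to -0.495. Exon lengths came from GENCODE M21, matched by gene identifier.

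Within 4e-09 log2 units, steps of whole reads accounted for the within-pool differences of 99.6% of 13978 genes in VP2.2 and 99.8% of 14248 in VP2.6, with a single possible pair of read numbers for 64.1% and 71.5%, but the deposited level of a gene differed from its reads by a shift common to both libraries of the pool, so no count test was run. Counting errors cover counting alone.

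Members and lists were chosen with earlier results of these data known. Named were all members, the 4 partners with the largest called change plus Cntnap2, Dlg4, Lgi1 and Adam22, Kcnc1 and Kcnd2, and the 3 genes nearest to the most abundant pore and beta gene. Epb41l3, Cntnap1, Cttn and other partners were named after their values were seen. A few genes of the lists are counted but not reported here by name.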

Additional observations from a re-analysis of the deposited data

Results flagged for a closer look

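The levels of the 9 genes form 18 groups of 4 libraries, and in each group Dixon's ratio was used to look for a library that lay far outside the range of its companions. For independent values chance flags about 1 in 20 such groups, or 0.90 of 18, and 4 were found. The deposited levels carry shifts by gene and pool, so the 4 cannot be judged against the 0.90. The values of a pool's 2 libraries are opposed, so a low value in one fraction and a high value in the other are not separate observations. Kcna4 in INPUT VP2.2 was low at 3.87 log2 CPM, where the other INPUT libraries had 4.34 to 4.40. Kcnab3 in INPUT VP2.2 was low at 3.01, where the others had 3.96 to 4.12. Kcna6 in TRAP VP2.11 was low at 4.86, where the other TRAP libraries had 5.85 to 6.00. Kcnab2 in INPUT VP2.6 was high at 7.16, where the others had 7.08 to 7.09, a gap of less than 0.1 log2 units.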

How the results depend on the processing

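The fold change of Kcna5 kept its direction and its call under all 13 alternatives. With the pool as a replicate block the calls among the 9 genes fell to 2, since Kcnab1 and Kcnab2 missed the threshold. The calls among all genes were 10643 with pan-neuronal centring (289 higher, 10354 lower), 3706 with a trend on exon length removed beside the block, and 3528 when a change of 1 or more on the log2 scale was also required. Partner calls fell to 5 with the length trend removed beside the block. Calls among the other Kv genes fell to 4 with that trend removed and to 2 with the block as well. Pan-neuronal centring turned the differences of Kcna1 (-0.85), Kcna2 (-0.25), Kcna3 (-0.63), Kcna4 (-0.71), Kcnab2 (-0.50) and Kcnab3 (-0.13), and Kcna1 (adjusted p from limma 0.011), Kcna4 (0.010) and Kcna6 (-1.34, 3.0e-04) were then called lower. Under it 0 of the 9 genes were higher and 6 lower. This follows from the 1.05 taken from every gene. When single pools were left out (leave-one-out), the difference ran from -0.18 to 0.51 for Kcna1, from 0.22 to 1.52 for Kcna2, from -0.14 to 0.73 for Kcna3 and from -0.47 to 0.08 for Kcna6, and 4 to 5 shares did not overlap between the fractions, against 3 with all pools, since fewer libraries overlap less easily. The cause of the other changes was not tested. Rounding hides the depth of VP1.6 and VP2.11, and the few reads of Kcna2, of Kcna3 and, in TRAP, of Kcna5 limit their values.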
